A study of Mus musculus with 30 samples.

Results

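Hmgcs1, Idi1, Fdps, Fdft1, Sqle, Lss, Cyp51 and Insig1 are the genes described here. They were chosen by symbol, as 7 enzymes and 1 regulator of cholesterol synthesis, and all 8 were found among the 20563 genes of the table. Each was read in all 30 RNA libraries of a study of mouse embryonic stem cells with and without partners of Polycomb repressive complex 2, the enzyme that methylates histone H3 at silent genes. The cells carried a homozygous Aebp2 gene trap (Aebp2gt/gt), a Pali1 knockout (Pali1-/-) or a double knockout of Pali1 and Pali2 (Pali1-/-, Pali2-/-), or they were C129 wild type or Pali wild type. Each line was sampled undifferentiated at day 0, on gelatin with 10% serum and the cytokine LIF, and as embryoid bodies without LIF at day 4 and day 8. Embryoid bodies are floating aggregates in which stem cells form mixed cell types.

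There were 2 libraries in each of 15 groups, biological duplicates by the study's own account. A p-value therefore rests on how far 2 cultures of a line lay apart, estimated for each gene over all 15 groups. It does not rest on the spread of the compared groups alone. The sources used here do not say how many clones stood behind a genotype. Both Pali mutants are compared with the same Pali wild-type libraries, and the gene trap is compared with C129, a pairing read from the order in which the study lists the lines. A wild type compared with the other wild type differs in parent line and in whatever else separated the cultures, and these cannot be told apart. Column totals ran from 15470082 to 18336791 normalised counts. Aebp2 lay between 17.1 and 66.4 normalised counts in the 6 gene trap libraries and between 1232 and 2784 in the other 24. Lcor and Lcorl, the loci of Pali1 and Pali2, give gene sums that do not check the deletions. Fgf5, a marker of primed epiblast, lay between 4.52 and 60.0 in the libraries titled ES and between 1635 and 3140 in those titled day 4. For 2 double knockout libraries title and description disagree on the culture state, and the title was followed.

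Cholesterol is built from acetyl-CoA through mevalonate, isoprenoid units, squalene and lanosterol. When sterols in the endoplasmic reticulum run low, the escort protein SCAP carries the membrane-bound factor SREBP-2 to the Golgi, where proteases release it to switch on nearly every enzyme of the route. When sterols are plentiful, INSIG proteins hold SCAP back, and Insig1 is itself an SREBP target. Serum lipoproteins supply cultured cells with cholesterol, so the set is known as a readout of the balance between supply and demand.

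The first 3 members make isoprenoid units. Hmgcs1 (chr13:119690379-119708260, plus strand, GENCODE M21 on GRCm38) encodes the synthase that makes HMG-CoA. Idi1 (chr13:8885501-8892451, plus) encodes an isomerase of isopentenyl diphosphate, and Fdps (chr3:89093588-89101959, minus) the synthase of farnesyl diphosphate. The next 4 commit the route to sterols. Fdft1 (chr14:63145150-63179578, minus) makes squalene, Sqle (chr15:59315077-59331192, plus) oxidises it, Lss (chr10:76531588-76557138, plus) closes the rings to lanosterol, and Cyp51 (chr5:4081145-4104746, minus) removes a methyl group from lanosterol. Insig1 (chr5:28071363-28078662, plus) is the retention factor of the feedback loop. Other annotated genes overlap Hmgcs1, Idi1, Fdps, Fdft1, Lss and Cyp51. The libraries mark strand, but no source used here states the strand setting of the counting, and reads shared with these neighbours cannot be told apart.

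SREBPs act from promoters together with the factors NFY and SP1, and promoter sequences are shown because they were not used to choose the members. RefSeq promoters on GRCm38.p6 matched 5 of the 8 members, and the 250 bases before the RefSeq start are shown for each, on the gene's own strand. They are Hmgcs1 (chr13:119690101-119690350 on the plus strand), Idi1 (chr13:8885356-8885605 on the plus strand), Lss (chr10:76531355-76531604 on the plus strand), Cyp51 (chr5:4104698-4104947 on the minus strand) and Insig1 (chr5:28071162-28071411 on the plus strand). By the GENCODE coordinates above, the windows of Idi1, Lss, Cyp51 and Insig1 run past the gene start, since the 2 annotations differ. Capitals mark CCAAT, the NFY core, and CACNCCAC, the core of a sterol regulatory element, on either strand, so that CCAAT on the other strand reads ATTGG. The other motifs searched on both strands were GGGCGG, an SP1 box, and TCACNCCAC, which contains CACNCCAC.
Hmgcs1: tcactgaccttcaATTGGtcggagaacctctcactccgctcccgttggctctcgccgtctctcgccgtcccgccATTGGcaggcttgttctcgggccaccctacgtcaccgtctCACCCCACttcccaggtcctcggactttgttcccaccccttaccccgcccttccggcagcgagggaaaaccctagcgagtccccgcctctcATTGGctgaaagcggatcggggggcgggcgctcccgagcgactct
Idi1: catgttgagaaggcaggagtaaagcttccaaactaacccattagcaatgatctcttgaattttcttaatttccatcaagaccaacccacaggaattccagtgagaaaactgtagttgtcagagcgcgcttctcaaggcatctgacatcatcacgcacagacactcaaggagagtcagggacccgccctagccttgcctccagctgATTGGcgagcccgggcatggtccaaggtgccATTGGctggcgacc
Lss: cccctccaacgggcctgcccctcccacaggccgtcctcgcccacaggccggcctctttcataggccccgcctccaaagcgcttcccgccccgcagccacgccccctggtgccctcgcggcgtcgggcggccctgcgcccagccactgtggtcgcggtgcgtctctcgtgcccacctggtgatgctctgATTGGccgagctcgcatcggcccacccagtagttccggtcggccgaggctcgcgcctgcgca
Cyp51: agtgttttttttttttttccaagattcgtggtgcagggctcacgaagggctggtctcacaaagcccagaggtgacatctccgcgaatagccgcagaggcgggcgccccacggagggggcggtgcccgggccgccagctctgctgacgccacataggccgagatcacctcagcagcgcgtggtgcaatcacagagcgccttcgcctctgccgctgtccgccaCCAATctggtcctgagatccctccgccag
Insig1: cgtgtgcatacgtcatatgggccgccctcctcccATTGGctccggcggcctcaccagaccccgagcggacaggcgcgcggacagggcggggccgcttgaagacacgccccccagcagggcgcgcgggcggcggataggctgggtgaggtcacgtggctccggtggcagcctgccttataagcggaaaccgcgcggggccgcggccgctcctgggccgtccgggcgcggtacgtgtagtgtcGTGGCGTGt
CCAAT was found in 5 of 5 of these windows and in 33.8% of 32851 promoters of the same length. GGGCGG was found in 5 of 5, against 32.7% of all promoters. CACNCCAC was in the Hmgcs1 and Insig1 windows and in 5.29% of all promoters, and TCACNCCAC was in the Hmgcs1 window and in 1.05% of all. Among 12 matched promoters of other enzymes of the route, CCAAT was in 11, GGGCGG in 11, CACNCCAC in 1 and TCACNCCAC in 0. These are matches of letters, not sites.

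Across the 30 libraries 7 members correlated positively with each other, some only weakly, and Hmgcs1 did not. Pearson's r on the log2 scale ran from 0.13 to 0.89 over the 21 pairs among the 7, with a median of 0.56. It was highest between Fdft1 and Insig1 and lowest between Sqle and Fdft1. Between Hmgcs1 and the others r ran from -0.39 to -0.03. These coefficients describe libraries that share lines, days and cultures, and no test was made of them. The value of Hmgcs1 rested on an estimated 0 to 191 reads per library, against 560 or more for each of the others, and its duplicates differed by more than 2-fold in 7 of 15 groups. Between duplicates of the other 7 members the largest ratio was 2.34, for Lss. The mean level by group and day therefore uses the other 7 members, while counts and medians over 8 members include Hmgcs1.

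**Figure D1:**
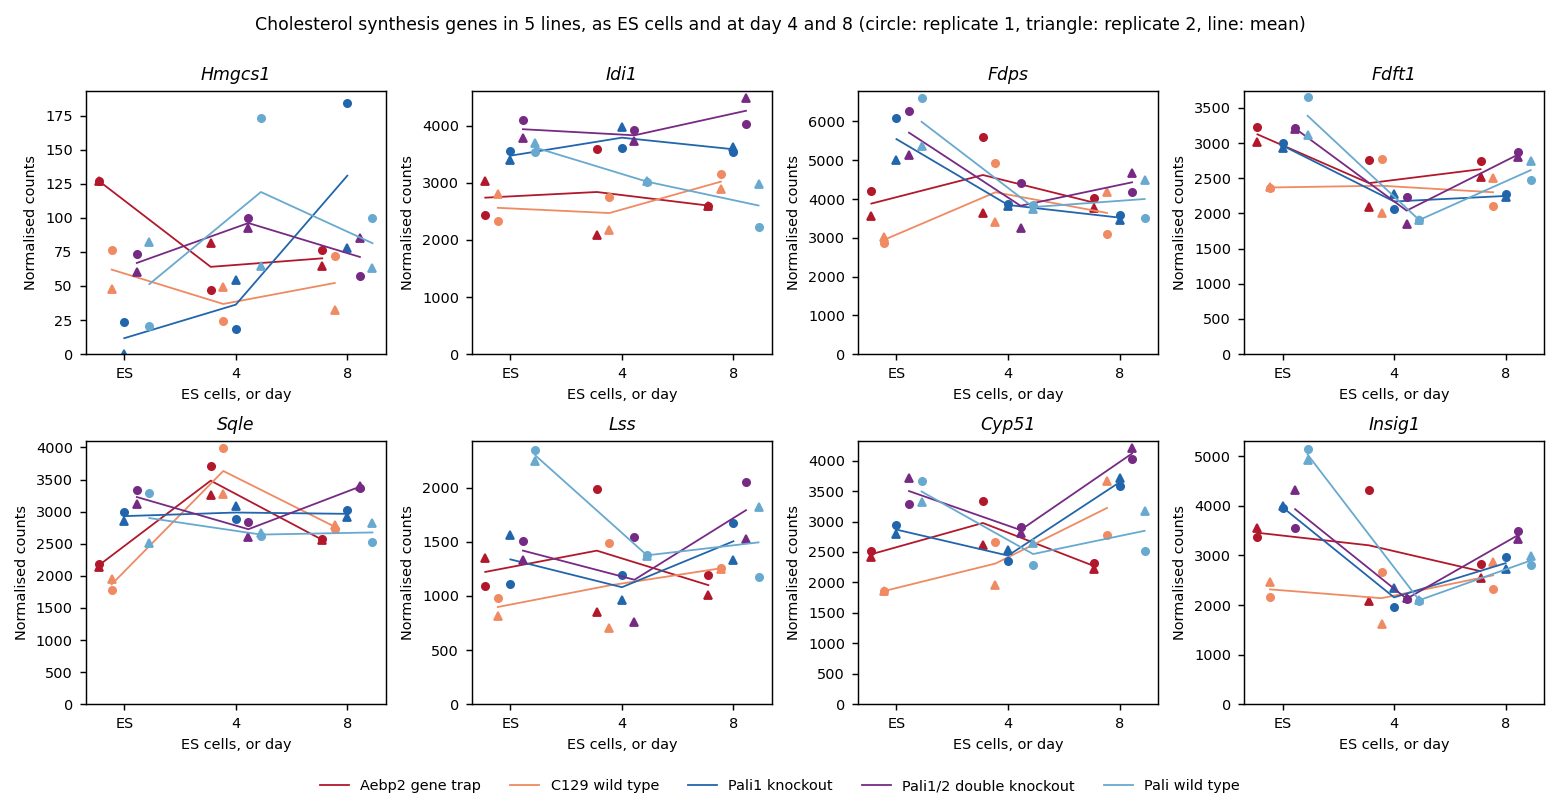
Normalised counts of the 8 genes (vertical axis, from 0, its own scale in each panel) in ES cells and at day 4 and 8 (horizontal axis) for 5 lines in colour. Circles are replicate 1, triangles replicate 2, and lines join group means. Insig1 in Pali wild type stood at 5138 and 4931 in ES cells and at 2085 and 2111 at day 4, and Hmgcs1 is scattered at low values.

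The most members were called between the wild-type lines before differentiation. Undifferentiated C129 cells had less RNA of 6 of the 8 members than undifferentiated Pali wild-type cells did, where 9.06% of 15712 tested genes were lower and 21.1% were called in either direction. Insig1 stood at 2159 and 2474 normalised counts in C129, against 5138 and 4931 in Pali wild type. Fdps stood at 2876 and 3016 in C129, against 6608 and 5377 in Pali wild type. Cyp51 stood at 1854 and 1861 in C129, against 3659 and 3326 in Pali wild type. In each of these genes both C129 libraries lay well below both Pali libraries.

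On the log2 scale of value + 4, Insig1 was lower by -1.12 (SE 0.241, limma with Benjamini-Hochberg adjustment over all genes tested, adjusted p = 0.00284), and Cyp51 by -0.91 (SE 0.150, adjusted p = 0.000316). Fdps differed by -1.02 (SE 0.214, adjusted p = 0.00237), with 2946 ± 99.1 in C129 and 5992 ± 870 in Pali wild type (SD, n = 2 each). The constant of 4 makes the scale understate changes of low genes. Sqle, whose product is a rate-limiting step of the sterol branch, had 1779 and 1957 in C129, against 3296 and 2504 in Pali wild type, a difference of -0.62 (adjusted p = 0.000532). Lss had 984 and 811 in C129, against 2350 and 2241 in Pali wild type, the widest gap of the 8 at -1.36 (SE 0.385, adjusted p = 0.0173). Fdft1 had 2359 and 2379 in C129, against 3655 and 3121 in Pali wild type, a difference of -0.51 (adjusted p = 0.0142). Idi1 had 2326 and 2798 in C129, against 3541 and 3691 in Pali wild type, and its difference of -0.50 (95% interval -0.89 to -0.11, adjusted p = 0.0658) missed the threshold. For these 7 genes the lines did not overlap, where 25.9% of all tested genes lay wholly lower in C129. With 1 of the 4 libraries left out, the Lss difference ran from -1.50 to -1.22. When each of the 4 libraries was left out in turn, Sqle, Fdps, Cyp51 and Insig1 passed every time, Fdft1 passed only without Pali wild-type replicate 2, and Lss passed in none of the 4.

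The rest of the route showed the same direction, with 1 exception. Of 13 tested other enzymes 8 were lower in C129 and 1 was higher, and 12 of 13 differences were below 0, with a median of -0.85 against 0.05 for all genes tested. Tm7sf2, a sterol reductase, averaged 96.5 ± 13.01 in C129 and 363 ± 17.9 in Pali wild type (SD, n = 2 each), a difference of -1.88 (adjusted p = 2.36e-05). Nsdhl, which removes methyl groups in sterol processing, averaged 381 ± 14.6 in C129 and 847 ± 0.775 in Pali wild type. Pmvk and Mvd, kinase and decarboxylase of the mevalonate part, differed by -0.92 and -0.85. Msmo1, Acat2 and Hsd17b7 were among those lower as well. Ebp, the sterol isomerase, went the other way, with 1212 ± 85.5 in C129 and 798 ± 39.7 in Pali wild type (adjusted p = 0.005). This count stayed between 8 and 10 called genes when single libraries were left out.

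Genes of lipid supply outside the route differed as well. Of 12 genes of sterol uptake and transport 4 were lower and Lrp1 alone was higher, where 21.1% of tested genes were called in either direction. Of 11 tested fatty acid synthesis genes that respond to SREBP, 6 were lower and 0 higher, among them Acly at 12402 ± 942 in C129 and 21726 ± 1117 in Pali wild type. Of 11 regulators 1 passed, Mbtps2, a protease that releases SREBP, at -0.42. Srebf2, the gene of SREBP-2, had 742 ± 89.8 in C129 and 788 ± 118 in Pali wild type (SD, n = 2 each) and was not called. Summed pluripotency markers were close, at 108309 and 100364 in C129 and 112412 and 112415 in Pali wild type, and the 10 proliferation genes gave 3 higher and 1 lower. Single pluripotency markers differed both ways within that sum. Nanog had 17341 and 14623 in C129, against 10228 and 10418 in Pali wild type. Tdh had 12611 and 13687 in C129, against 20022 and 19717 in Pali wild type. Their part in the result was not tested.

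At day 4 and day 8 few members were called between these lines. At day 4 Sqle was higher in C129, at 3994 and 3273 in C129, against 2623 and 2663 in Pali wild type (0.45, adjusted p = 0.0087), and it was the 1 member called, where 15.9% of tested genes were. That call was lost without replicate 1 of either line. Of the other enzymes Ebp was higher at day 4 and lower at day 8. At day 8 limma called 0 members, with 0 at an unadjusted p under 0.05, where 17.3% of tested genes were called. The 95% interval at day 8 was -0.67 to 0.35 for Insig1 and -0.59 to 0.31 for Fdps, and the day 0 differences of these 2 genes lay outside it. When the change from day 0 to day 8 was itself compared between the lines, limma called neither gene. Fdps had 0.88 there (adjusted p = 0.0631).

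**Figure D2:**
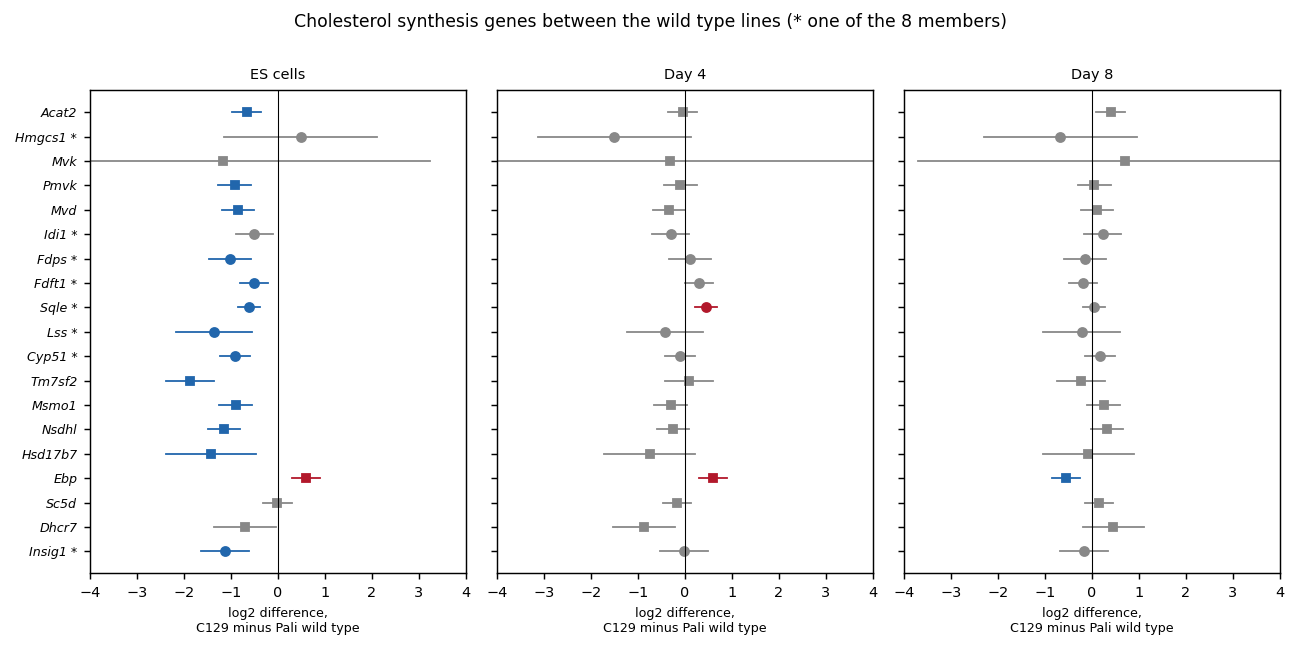
Log2 differences, C129 minus Pali wild type (horizontal axis, lines are 95% intervals, drawn from -4 to 4), for the 8 members (circles, starred) and 11 other enzymes (squares), in the order of the route with Insig1 last. Blue was called lower in C129, red higher and grey was not called. At day 0 Insig1 lay at -1.12 and Tm7sf2 at -1.88, and at day 8 0 members were called.

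The course of the members is given line by line, and calls within a line do not test a difference between lines. In Pali wild type members fell when differentiation began. Insig1 had 5138 and 4931 normalised counts at day 0, 2085 and 2111 at day 4 and 2810 and 2987 at day 8. Fdft1 had 3655 and 3121 at day 0, 1908 and 1906 at day 4 and 2479 and 2751 at day 8. At day 4 both genes lay below both day 0 libraries of the line.

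From day 0 to day 4 of Pali wild type 4 members fell and 0 rose, where 12.7% of tested genes fell and 27.3% changed in either direction. On the log2 scale Insig1 fell by 1.26 with an SE of 0.241 (adjusted p = 0.000769), Fdft1 by 0.82 (SE 0.141, adjusted p = 0.000267), Fdps by 0.65 (adjusted p = 0.0303) and Cyp51 by 0.50 (adjusted p = 0.0179). Insig1 and Fdft1 passed whichever of the 4 libraries was left out, Cyp51 in 2 of 4 and Fdps in 1 of 4. Of 13 other enzymes 8 fell and 0 rose, with Acat2 at 2138 ± 20.1 at day 4, against 3986 ± 139 at day 0 (SD, n = 2 each). Over the same span 8 of 8 pluripotency markers fell and 4 of 4 primed epiblast markers rose, and their part in the result was not tested. Fatty acid genes were mixed, with 4 falls led by Scd2 and 2 rises. Between day 4 and day 8 limma called 0 members, with 1 at an unadjusted p under 0.05, where 2.81% of tested genes changed. From day 0 to day 8 Insig1 was the 1 member called lower (-0.80, adjusted p = 0.0218, 25.8% of all tested genes), and the call was lost whichever of the 4 libraries was left out. Over that span 4 members had an unadjusted p under 0.05, 6 of 8 lay wholly lower at day 8, where 28% of tested genes did, and 6 of 13 other enzymes fell. Replicate 2 of Pali wild type carried far more visceral endoderm and yolk sac RNA than replicate 1, with summed markers of 4795 and 339 at day 4 and of 13376 and 608 at day 8.

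In the Pali mutants Insig1 and Fdft1 fell to day 4 as well. In the double knockout Insig1 had 3548 and 4321 at day 0, 2113 and 2142 at day 4 and 3494 and 3330 at day 8. Insig1, Fdft1 and Fdps fell by 0.88, 0.66 and 0.59 on the log2 scale to day 4 (adjusted p = 0.0111, 0.00186 and 0.0498), 3 members where 27.5% of tested genes were called. Fdft1 passed with any of the 4 libraries left out, Insig1 only without day 0 replicate 1 and Fdps only without day 4 replicate 1. In the Pali1 knockout Insig1 had 3953 and 3989 at day 0, 1968 and 2342 at day 4 and 2960 and 2732 at day 8. There Insig1 and Fdft1 fell by 0.89 and 0.45 to day 4 (adjusted p = 0.00933 and 0.0207), 2 members where 30.5% were called, and with 1 of 4 libraries left out Insig1 passed in 3, not without day 4 replicate 1, and Fdft1 only without day 4 replicate 2. Other enzymes gave 5 falls in the double knockout and 4 in the Pali1 knockout, with 0 rises in each.

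After day 4 Cyp51 rose in both Pali mutants. In the double knockout it had 3293 and 3707 at day 0, 2910 and 2810 at day 4 and 4027 and 4209 at day 8. In the Pali1 knockout it had 2947 and 2787 at day 0, 2346 and 2536 at day 4 and 3576 and 3712 at day 8. In both lines the day 8 libraries lay above the day 0 and day 4 libraries of that line. From day 4 to day 8 it rose by 0.52 in the double knockout (adjusted p = 0.0388) and by 0.58 in the Pali1 knockout (adjusted p = 0.0148). Fdft1 rose as well in the double knockout (0.48, adjusted p = 0.043), so the members called were 2 there and 1 in the Pali1 knockout, where 7.95% and 14.5% of tested genes were called. With 1 of 4 libraries left out, the rise of Cyp51 ran from 0.49 to 0.56 in the double knockout. It ran from 0.52 to 0.63 in the Pali1 knockout, and that of Fdft1 in the double knockout from 0.34 to 0.62. Each of these 3 calls was lost whichever of its 4 libraries was left out. From day 0 to day 8 limma called 0 members in the double knockout, with 0 at an unadjusted p under 0.05, where 30.9% of tested genes changed.

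In the Pali1 knockout 3 members were called between day 0 and day 8, where 42.1% of tested genes were. Fdps and Fdft1 fell by 0.65 and 0.40 on the log2 scale (adjusted p = 0.021 and 0.0299), but Fdps passed only without day 0 replicate 2, and Fdft1 was lost whichever of the 4 libraries was left out. Hmgcs1 was called higher, and its day 0 includes a library at 0. It had 23.4 and 0 at day 0, 18.6 and 54.1 at day 4 and 184 and 77.8 at day 8, and its log2 difference was 3.57 (adjusted p = 0.00118), or 2.18 (adjusted p = 0.0375) without the library at 0. Whether that 0 reflects the cells or the estimate was not tested. Among pairs of duplicates with a value of at least 100 in either library, 1.92% lay more than 8-fold apart. The Hmgcs1 pair at day 0 is below that level.

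In C129 and the gene trap limma called 0 members lower at day 4 than at day 0. In the gene trap Fdft1 had 3233 and 3015 at day 0, 2765 and 2098 at day 4 and 2740 and 2518 at day 8. Its day 4 libraries lay below those of day 0, and the difference of -0.37 had an adjusted p of 0.0524. In C129 Insig1 had 2159 and 2474 at day 0, 2665 and 1613 at day 4 and 2329 and 2871 at day 8, and no pair of days was called. Sqle had 1779 and 1957 at day 0, 3994 and 3273 at day 4 and 2731 and 2798 at day 8. In the gene trap Sqle had 2192 and 2144 at day 0, 3709 and 3257 at day 4 and 2566 and 2555 at day 8. Sqle peaked at day 4 in both lines, above every library of day 0 and day 8.

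To day 4 Sqle rose by 0.95 in C129 (SE 0.109, adjusted p = 4.73e-06) and by 0.68 in the gene trap (adjusted p = 0.000118), and both calls held with any 1 of 4 libraries left out. It was the 1 member called in each line, where 29.1% of tested genes were called in C129 and 30.6% in the gene trap. From day 4 to day 8 it fell by 0.39 in C129 (adjusted p = 0.0116) and by 0.44 in the gene trap (adjusted p = 0.0182), where 30.8% and 8.00% were called. With 1 of 4 libraries left out, the fall in C129 was lost without replicate 1 of either day, and that in the gene trap passed only without day 4 replicate 2. Cyp51 had 1854 and 1861 at day 0, 2664 and 1958 at day 4 and 2773 and 3673 at day 8 in C129, and rose by 0.78 from day 0 to day 8 (adjusted p = 0.000335). With Sqle, at 0.57, it made 2 members called over that span in C129, where 45.8% of tested genes were, and both held with any 1 of 4 libraries left out. Cyp51 was also called from day 4 to day 8 in C129 (0.48, adjusted p = 0.0202), a call lost without replicate 2 of either day. In the gene trap limma called 0 members between day 0 and day 8, with 1 at an unadjusted p under 0.05, where 31.3% were called.

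Of 13 other enzymes in C129 7 rose and 1 fell between day 0 and day 8, where 45.8% of tested genes were called in either direction. The counts of the other lists below stand beside the same share. Dhcr7, the last reductase, averaged 325 ± 53.0 at day 8, against 121 ± 62.7 at day 0 (SD, n = 2 each), and Mvd averaged 1483 ± 294 at day 8, against 897 ± 82.2 at day 0. Ebp fell by 1.33. Of 12 genes of uptake and transport 9 rose and 0 fell, led in size by Soat1, which esterifies cholesterol, at 3.60. Of 10 proliferation genes 8 fell and Mki67 rose. Pluripotency markers summed to 20373 and 13860 at day 8, against 108309 and 100364 at day 0. Visceral endoderm and yolk sac markers summed to 3620 and 5726 at day 8, against 810 and 638 at day 0, and mesenchyme markers to 1896 and 5379, against 277 and 242. Their part in the result was not tested.

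**Figure D3:**
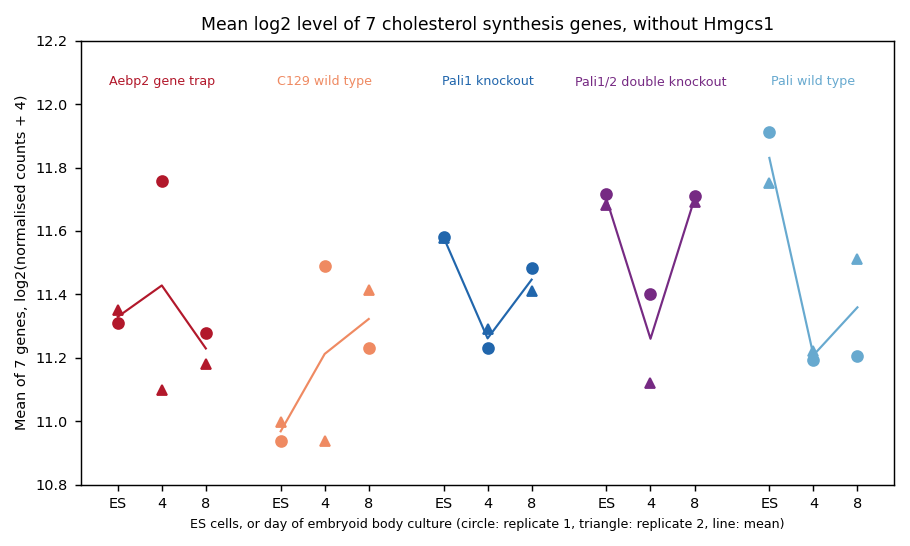
Mean of 7 members without Hmgcs1 on the scale log2(normalised counts + 4) (vertical axis, which does not start at 0) in each library, by line and day, with lines through the group means. Pali wild type stood at a mean of 11.83 in ES cells and 11.21 at day 4, and C129 at 10.97 in ES cells and 11.21 at day 4.

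The mean of the 7 members puts the 15 groups in order. C129 at day 0 was lowest, at 10.97 ± 0.0412 on the log2 scale (SD, n = 2), and Pali wild type at day 0 was highest, at 11.83 ± 0.114. Between Pali wild type at day 4, at 11.21, and the Pali1 knockout at day 8, at 11.45, each step in the order was smaller than the larger SD of the 2 neighbours. The gene trap at day 0 had 11.33 ± 0.0284. The double knockout had 11.70 ± 0.0247 at day 0 and 11.70 ± 0.0138 at day 8, and the Pali1 knockout 11.58 ± 0.0025 at day 0. The 5 groups of day 4 lay between 11.21 and 11.43, closer to each other than the 2 gene trap duplicates of that day, at 11.76 and 11.10.

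The difference in course between the wild types was itself tested. From day 0 to day 4 the change in C129 exceeded that in Pali wild type by 1.07 on the log2 scale for Sqle (SE 0.155, adjusted p = 0.000579), 1.13 for Fdps (adjusted p = 0.0263), 0.82 for Fdft1 (adjusted p = 0.0154) and 0.80 for Cyp51 (adjusted p = 0.0247). These were 4 of 8 members, where 8.99% of tested genes were called. Insig1 had 1.10 with adjusted p = 0.0519. From day 0 to day 8 the excess was 0.67 for Sqle (adjusted p = 0.00747) and 1.08 for Cyp51 (adjusted p = 0.00233), 2 members where 14.2% were called, and 7 of 13 other enzymes were higher and Ebp lower. With 1 of 8 libraries left out, Sqle passed every time at both spans and Cyp51 every time to day 8, while to day 4 Fdft1 passed in 5, Cyp51 in 3 and Fdps in 2 of 8. The day 0 libraries enter these values and the day 0 comparison alike. Between each mutant and its own wild type, limma called the change from day 0 to day 4 different for 0 members. In each of these tests 0 members had an unadjusted p under 0.05. To day 8 the Pali1 knockout gave 0 members against Pali wild type as well, with 2 at an unadjusted p under 0.05. The share of all tested genes is not reported here for these tests.

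Few members passed the test between a mutant and its own wild type. Of 72 such tests 2 were higher and 1 lower, and all 3 were at day 8. Limma called 0 members in the Pali1 knockout at day 0, day 4 and day 8, with 1, 0 and 2 at an unadjusted p under 0.05, where 4.79%, 2.67% and 13.6% of tested genes were called. It called 0 in the double knockout at day 0 and day 4, with 0 at an unadjusted p under 0.05, where 3.67% and 2.07% were called.

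At day 8 of the double knockout Idi1 and Cyp51 were higher. Idi1 had 4030 and 4494 in the double knockout, against 2223 and 2981 in Pali wild type. Cyp51 had 4027 and 4209 in the double knockout, against 2520 and 3176 in Pali wild type. Both double knockout libraries lay above both wild-type libraries, which differed between themselves. The log2 differences were 0.72 for Idi1 (SE 0.186, adjusted p = 0.0263) and 0.54 for Cyp51 (SE 0.150, adjusted p = 0.0369), 2 of 8 members where 7.21% of tested genes were called. Sqle stood at 3373 and 3405, against 2530 and 2822 in Pali wild type, and was not called (0.34, adjusted p = 0.0674). In 5 members both double knockout libraries lay above both wild-type libraries, and 29.8% of tested genes did the same. Of 13 other enzymes 5 were higher too, among them Sc5d, Acat2, Nsdhl and Msmo1, by 0.56 to 0.59.

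These day 8 calls rest on few libraries. Both members passed only without Pali wild-type replicate 2 among the 4 libraries left out in turn, and the count of other enzymes dropped to between 0 and 1. Without Pali wild-type replicate 1 the differences were 0.51 for Idi1 and 0.37 for Cyp51. Summed neural markers were 13424 and 11671 in the double knockout and 6355 and 4913 in Pali wild type, pluripotency markers 35538 and 33344 against 62098 and 50399, and visceral endoderm and yolk sac markers 1016 and 2318 against 608 and 13376. Their part in the result was not tested. Fewer cells of a type and less RNA per cell cannot be told apart in these bulk samples. The change of the double knockout from day 0 to day 8 was called different from that of Pali wild type by limma for 0 members, with 2 at an unadjusted p under 0.05, where 1.12% of tested genes were called, and the value for Idi1 was 0.60 (95% interval 0.05 to 1.16).

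The Pali1 knockout at day 8 had 3547 and 3628 for Idi1 and 3576 and 3712 for Cyp51, against the same Pali wild-type values. Its differences of 0.48 (95% interval 0.09 to 0.87) and 0.36 (95% interval 0.05 to 0.68) were not called. Between the double and the Pali1 knockout limma called 0 members at day 0, day 4 and day 8, with 1, 0 and 1 at an unadjusted p under 0.05, where 3.07%, 1.38% and 1.37% of tested genes were called. At day 8 the interval of that difference was -0.15 to 0.64 for Idi1 and -0.14 to 0.49 for Cyp51.

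In the gene trap Cyp51 was lower at day 8. It had 2320 and 2214 in the gene trap, against 2773 and 3673 in C129, a difference of -0.49 (SE 0.150, adjusted p = 0.0257). This was 1 of 8 members where 20.1% of tested genes were called, so the count does not set the members apart. The call was lost without either gene trap library and without C129 replicate 2, where the difference was -0.29. The change from day 0 to day 8 differed for Cyp51 as well, by -0.90 (SE 0.212, adjusted p = 0.00831), 1 member where 15.3% were called, and without C129 day 8 replicate 2 it was -0.70 (adjusted p = 0.0542). Acat2, Nsdhl and Msmo1 were 3 other enzymes lower at day 8, by -0.62 to -0.65, and between 0 and 3 other enzymes passed with single libraries left out. For the change from day 0 to day 8 all 8 members lay below 0, with a median of -0.43. Of 13 other enzymes 6 were called lower and 1 higher in that change, where 15.3% of tested genes were called. Under other settings the number of other enzymes called there ran from 0 to 9. At day 8 Scd2, a fatty acid desaturase, averaged 7722 ± 255 in the gene trap and 17046 ± 2637 in C129 (SD, n = 2 each). Pluripotency markers summed to 60155 and 54591 in the gene trap and 20373 and 13860 in C129 at day 8, and their part in the result was not tested.

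At day 0 the gene trap stood the other way. The C129 libraries here are those of the day 0 comparison of the wild types, and they enter the changes from day 0 in C129 as well. Their mean of 7 members, 10.97, was the lowest of the 15 groups. Insig1 had 3367 and 3550 in the gene trap, against 2159 and 2474 in C129. Cyp51 had 2509 and 2419 in the gene trap, against 1854 and 1861 in C129. Every gene trap library lay above every C129 library in 7 of 8 members, where 22.6% of tested genes did, and the median difference was 0.40, against -0.03 over all genes. Limma called 0 members, with 3 at an unadjusted p under 0.05, where 13% of all tested genes were called. Insig1 differed by 0.58 (95% interval 0.07 to 1.09, adjusted p = 0.132) and Fdft1 by 0.40 (adjusted p = 0.073). Among other enzymes Pmvk and Tm7sf2 were higher, at 0.85 and 0.98, and Ebp lower. At day 4 limma called 0 members, with 2 at an unadjusted p under 0.05, where 9.01% were called.

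The day 4 cultures of these 2 lines differed between duplicates. In the gene trap replicate 1 exceeded replicate 2 in 7 of 8 members, with Insig1 at 4321 and 2089 and Lss at 1988 and 848, and the median difference was 0.51 on the log2 scale. In C129 replicate 1 exceeded replicate 2 in 7 of 8 members too, with Fdps at 4936 and 3413, and the median was 0.45. Other enzymes followed, with medians of 0.34 and 0.39, while the median over all genes was 0 in both groups. One-sided duplicates were not particular to these 2 groups. Replicate 1 was higher in 7 of 8 members in the double knockout at day 4 and in 8 of 8 in the gene trap at day 8, with a median of 0.11 in each. In Pali wild type at day 8 replicate 2 was higher in 7 of 8, and the median of replicate 1 minus replicate 2 was -0.25. 

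**Figure D4:**
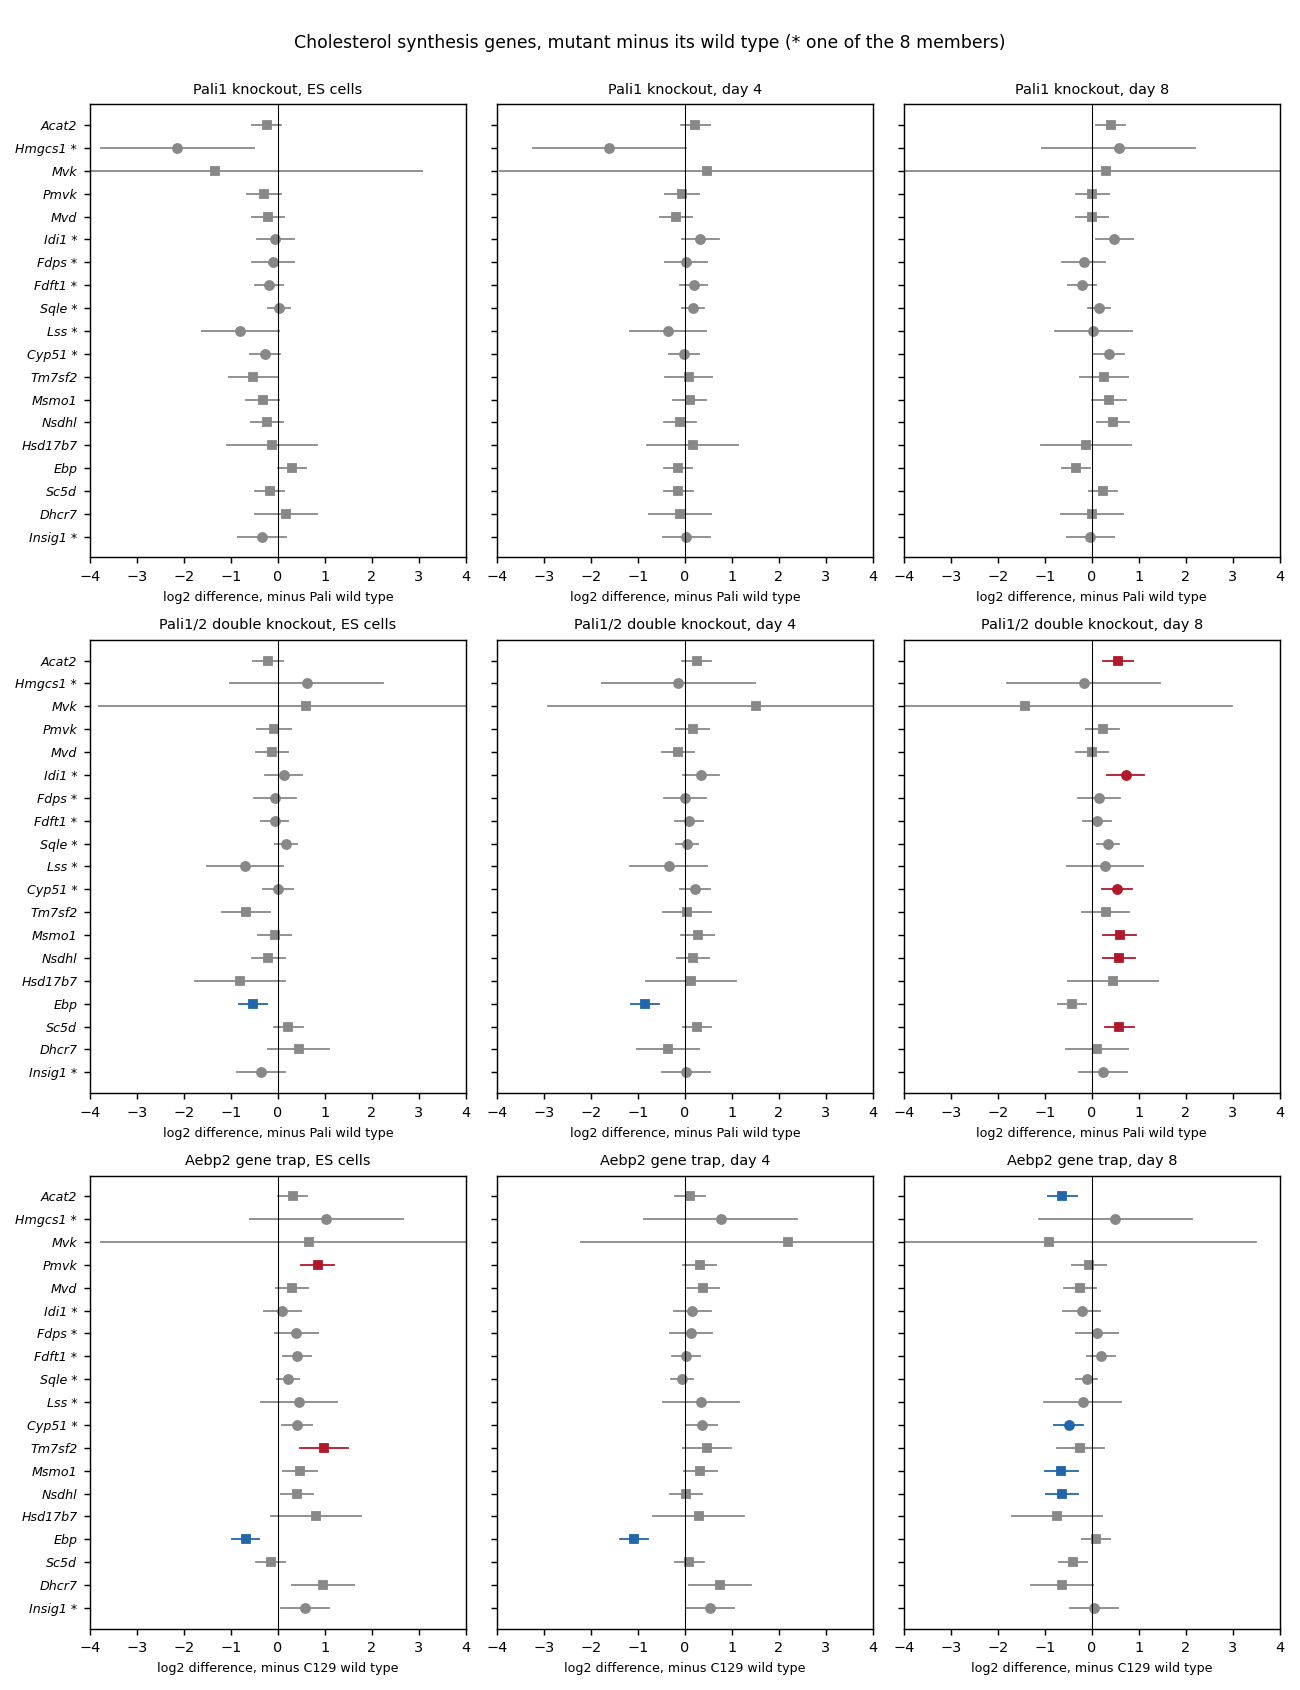
Log2 differences of each mutant minus its wild type (horizontal axis, lines are 95% intervals, drawn from -4 to 4) in ES cells and at day 4 and 8, for the 8 members (circles, starred) and 11 other enzymes (squares). Red was called higher in the mutant, blue lower and grey was not called. Idi1 lay at 0.72 in the double knockout and Cyp51 at -0.49 in the gene trap at day 8.

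The genes most like the members were found by Pearson's r with the mean of the 8 over 30 libraries, among 10636 genes with a mean of at least 50. Tm7sf2 came first at 0.85, followed by Aacs at 0.84, which activates acetoacetate, Msmo1 at 0.84, Nsdhl at 0.82, Rdh11 at 0.81, Mvd at 0.80, Idh1 at 0.79, Pmvk at 0.77 and Acat2 at 0.75. These are 9 of the first 10 genes, and the same 10 came first when Hmgcs1 was left out of the mean. Of these 10, 6 are enzymes of the route that the choice of members did not include. Ebp, at -0.03, and Srebf2, at 0.32, were not among them. Taken singly, Cyp51 was most like Msmo1 at 0.89, Lss most like Mvd at 0.72, Sqle most like Atp2c1 at 0.82 and Idi1 most like Peg13 at 0.76. All of these coefficients come from libraries that share lines and days, and no test was made.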

How the data were processed

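Ribosomal RNA was removed before strand-marked libraries were built from total RNA, per the labels' protocols. The authors deposited normalised counts, treated here as a signal in 1 table for all libraries. Kallisto 0.43.1, HISAT2 2.0.5, DESeq2 and the build mm10 appear in the submitters' processing notes, with no role given. The value of 1 read in each library gave a depth of 13198297 to 28151943 estimated reads. At a tolerance of 0.001 reads, 81.8 to 86.1% of low values per library came out as whole reads, short of nearly all genes, so no count model was run. Libraries were grouped by title.

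The test covered 15712 genes with a value of 10 or more in 2 or more libraries. Log2(value + 4) in 30 libraries was fitted with limma 3.58.1 in R 4.3.3, with 1 mean per group, trend and robust moderation and 15 residual degrees of freedom. Benjamini-Hochberg adjustment ran within each of 38 comparisons, at a threshold of 0.05, and intervals are 95%. The fit was tested on simulated data. Alternatives were other pseudocounts, filters and scalings, a replicate block, fits within 1 parent line and single libraries left out. The members, the gene lists and the naming rule (the members, the 10 genes most like their mean and called genes of the lists) were chosen with earlier results of these data known. Promoters were read from RefSeq on GRCm38.p6. Some genes of the lists are not reported here by name.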

Additional observations from a re-analysis of the deposited data

Results flagged for a closer look

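A change over time that differed between lines, by a test of the difference itself in limma, drew attention to 7 values. Between C129 and Pali wild type, the change from day 0 to day 4 differed by 1.07 for Sqle, 1.13 for Fdps, 0.82 for Fdft1 and 0.80 for Cyp51 on the log2 scale (adjusted p = 0.000579, 0.0263, 0.0154 and 0.0247). The change from day 0 to day 8 differed by 0.67 for Sqle and 1.08 for Cyp51 (adjusted p = 0.00747 and 0.00233). Between the gene trap and C129 the change from day 0 to day 8 differed by -0.90 for Cyp51 (adjusted p = 0.00831). Groups of 2 libraries are too small to look for a library far from its group.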

How the results depend on the processing

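No called member difference turned its direction under the alternatives run, whereas uncalled ones did in 160 of 1284 checks with 1 library left out and in 43 of 2416 under other settings. Of 188 checks of a call with 1 library left out 78 lost it, and of 352 under other settings 25 did. Calls were gained in 15 and 35 checks of uncalled differences. The following are counts of members called. With no filter on low values the double knockout from day 4 to 8 gave 1. With a mean of at least 50, Pali wild type from day 0 to 8 gave 3 and the gene trap from day 0 to 4 gave 2. TMM rescaling gave 1 for the gene trap against C129 at day 0 and 3 for Pali wild type from day 0 to 8. Upper-quartile rescaling gave 1 for the double knockout against wild type at day 8, 0 for the double knockout from day 4 to 8, 4 for Pali wild type from day 0 to 8, 2 for the gene trap from day 0 to 4 and 1 for C129 from day 4 to 8. Without trend or robust moderation the double knockout gave 1 against wild type at day 8 and 0 from day 4 to 8. Fits within 1 parent line gave 2 for the Pali1 knockout against wild type at day 8, 2 for it from day 4 to 8, 5 from day 0 to 8 and 1 for its difference in that change. They gave 2 for Pali wild type from day 4 to 8 and 4 from day 0 to 8, 1 for C129 from day 4 to 8, and 0 for the gene trap against C129 at day 8, from day 4 to 8 and in the change from day 0 to 8. Without the 2 double knockout libraries with the other description, that line gave 1 from day 0 to 4 and 0 from day 4 to 8.

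The replicate block gave 1 for the gene trap against C129 at day 0, 1 for the Pali1 knockout from day 0 to 4, 0 from day 4 to 8, 0 and 1 for the double knockout from day 4 to 8 and from day 0 to 8, 3 for Pali wild type from day 0 to 8, and 2 and 1 for C129 from day 0 to 4 and from day 4 to 8. Whether the numbers pair the samples is not known. Over all days same-numbered deviations correlated over 0.1 in 1 of 105 pairs. Within a day r ran from 0.03 to 0.096 in ES cells, from 0.02 to 0.084 at day 4 and from -0.06 to 0.11 at day 8. By their best correlation 28 of 30 libraries went with their own number. The 2 libraries of a group mirror each other there and are not separate counts. This is a hint from the data and not the design.

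With 1 library left out, C129 against Pali wild type gave 4 to 5 at day 0 and 0 to 2 at day 4, and its difference in change 1 to 5 to day 4 and 2 to 3 to day 8. Pali wild type gave 2 to 5 from day 0 to 4 and 0 to 1 from day 0 to 8. The gene trap gave 1 to 3 from day 0 to 4, 0 to 1 from day 4 to 8, 0 to 1 against C129 at day 4 and at day 8, and 0 to 1 for its change to day 8. C129 gave 1 to 3 from day 0 to 4 and 1 from day 4 to 8. The double knockout gave 0 to 2 against wild type at day 8, 1 to 2 from day 0 to 4, 0 from day 4 to 8 and 0 to 1 against the Pali1 knockout at day 0. The Pali1 knockout gave 0 to 2 from day 0 to 4, 0 from day 4 to 8, 1 to 2 from day 0 to 8, 0 to 1 against wild type at day 0 and 0 to 1 for its change to day 8. The causes were not tested. A group of 2 libraries left with 1 is assumed to vary like the other groups.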

Other observations

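Of 8 LXR target and cholesterol efflux genes 2, Apoe and Abcg1, were lower and 0 higher in each Pali mutant at day 8, where 7.21% of tested genes were called in the double knockout and 13.6% in the Pali1 knockout. Apoe, which encodes a protein part of lipoproteins, averaged 4558 ± 365 normalised counts in the double knockout and 11729 ± 1030 in Pali wild type (SD, n = 2 each), a difference of -1.36 (adjusted p = 0.000261). In the Pali1 knockout it averaged 4921 ± 801, a difference of -1.26 from the same wild-type libraries (adjusted p = 7.78e-05). Abcg1, a sterol exporter, averaged 445 ± 18.1 in the double knockout and 402 ± 102 in the Pali1 knockout, against 1133 ± 95.03 in Pali wild type. In the gene trap both were higher than in C129 at day 8, Apoe by 0.60 and Abcg1 by 1.33. In the Pali lines the Apoe difference was not confined to day 8. At day 4 Apoe had 6534 and 7632 in the double knockout and 7427 and 7407 in the Pali1 knockout. Pali wild type had 11065 and 12434. At day 0 the double knockout had 8914 and 8615, the Pali1 knockout 12560 and 10114 and Pali wild type 15087 and 11912. At day 4 Abcg1 had 473 and 381 in the double knockout, against 958 and 701 in Pali wild type. The Pali1 knockout had 1011 and 930.

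Ebp stood apart from the other enzymes. It was lower in the double knockout than in Pali wild type at day 0 and day 4, and lower in the gene trap than in C129 at day 0 (752 ± 112 in the gene trap and 1212 ± 85.5 in C129, adjusted p = 0.00317) and at day 4. Mvk was listed at 0 in 13 of 30 libraries and Scap in 16, so neither is given a fold.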
